A study of Mus musculus with 12 samples.

Results

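Interferon-stimulated genes are switched on when an interferon binds its receptor on a cell, and the antiviral genes among them were examined here in the mouse brain after stroke. The list held 46 genes, chosen by gene symbol, of the 49315 genes counted. All 46 symbols matched 1 gene each in the count table, and all 46 passed the filter on low counts, along with the rest of the 20290 genes tested.

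Brain RNA of 12 mice was sequenced 14 d after stroke, with 6 recipients of wildtype (WT) bone marrow (BM) and 6 recipients of *Tet2*-KO BM. In the *Tet2*-KO group, 10% of the graft came from CD45.2 *Tet2*-/- donors and 90% from CD45.1 *Tet2*+/+ donors, whereas in the WT group the CD45.2 share of 10% was *Tet2*+/+ as well. All recipients were male CD45.1 Pep Boy mice with intact *Tet2*, aged 8 to 12 weeks at transplant, whose heads were shielded during irradiation. The donors were 8 to 14 weeks old. Stroke followed 8 to 10 weeks after the transplant and was produced in both groups by occluding the middle cerebral artery for 30 min. *Tet2* was thus deleted in part of the blood lineage only, and not in the resident cells of the brain. Brains without stroke were not analysed here, so that every comparison is between 2 stroke groups. The treatment entry in the labels of the *Tet2*-KO samples names control cells, and the groups used here follow the titles and the genotype entries.

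Each library held 12000261 to 21049763 counted reads, and levels are given in CPM, the reads of a gene per 1000000 reads after TMM scaling, which corrects for differences in library composition. *Tet2* ranged from 126 to 147 CPM in the WT mice and from 117 to 137 CPM in the *Tet2*-KO mice (log2 fold change -0.01 ± 0.05 SE), so its level in whole tissue does not check the genotype labels. The 46 genes drew 0.126 to 0.195% of the reads in the WT mice and 0.0315 to 0.152% in the *Tet2*-KO mice. WT mouse 2 stood above its group in these genes, the *Tet2*-KO mice were widely spread with mouse 5 at the top, and counts are given below with and without these mice.

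Type I interferons bind the receptor pair Ifnar1 and Ifnar2, whose kinases Jak1 and Tyk2 phosphorylate signal transducers, Stat2 among them. With Irf9, Stat2 enters the nucleus in a complex that binds the interferon-stimulated response element (ISRE) in the promoters of its targets. Their products sense foreign nucleic acids, degrade RNA, block translation and hinder viruses at membranes. In the injured brain microglia and infiltrating leukocytes are known to express these genes, even without a virus.

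The ISRE has the core letters GAAANNGAAA, in which N is any base, and its letters were searched on both strands of the RefSeq promoter windows (GRCm38.p6, which is mm10), from 250 bases before to 50 bases after each start site. A window was given for 34 of the 46 genes, and 18 of the 34 (52.9%) held the letters, beside 3.99% of all 27025 genes with a window. Counted by window, 20 of 39 windows of the list (51.3%) and 3.44% of all 32851 windows did. The sequences below are shown because they place these letters in genes whose levels or fold changes are described further on. Each is read 5′ to 3′ on the strand of the gene and ends before the start site, with the ISRE letters or their reverse complement in capitals.
*Stat2*, chr10:128270266-128270295, plus strand: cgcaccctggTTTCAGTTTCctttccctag
*Oas1a*, chr5:120907526-120907555, minus strand: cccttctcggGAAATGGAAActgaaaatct
*Ifit1*, chr19:34640794-34640823, plus strand: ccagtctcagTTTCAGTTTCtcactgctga
*Ifit3*, chr19:34583397-34583426, plus strand: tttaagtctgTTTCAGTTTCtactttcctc
*Ifit3b*, chr19:34607793-34607822, plus strand: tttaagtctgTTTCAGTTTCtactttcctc
*Bst2*, chr8:71537577-71537606, minus strand: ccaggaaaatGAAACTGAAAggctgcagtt
*Rsad2*, chr12:26456553-26456582, minus strand: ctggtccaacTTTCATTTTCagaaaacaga
*Isg15*, chr4:156200871-156200900, minus strand: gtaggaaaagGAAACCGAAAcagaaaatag
*Slfn8*, chr11:83020839-83020868, minus strand: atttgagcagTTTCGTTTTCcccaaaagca

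The stretches of 30 bases shown for *Ifit3* and *Ifit3b* are identical, with the capitals starting 122 and 154 bases before the start site. The stretch of *Isg15* lies among 3 overlapping matches, starting 78, 72 and 66 bases before the start site. By role, the letters were found in 4 of 4 windowed genes among Stat2 and the sensors, 3 of 4 RNA-dependent enzymes, 3 of 4 *Ifit* genes, 4 of 7 restriction factors, 2 of 5 genes of ISG15, ubiquitin and ADP-ribose transfer, 2 of 5 Schlafen and *Samd9l* genes, and 0 of 5 other genes. The GAS letters TTCNNNGAA, of the interferon gamma-activated site, were present in 7 of the 34 genes (20.6%) and in 9.55% of all genes. A match is a description of the letters and not a bound site. The fold changes described below had a median of -1.001 (log2) in the 18 genes with ISRE letters and -0.83 in the 16 windowed genes without them, and both ranges overlapped.

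All 46 genes had a lower fitted level in the *Tet2*-KO brains than in the WT brains. Their median log2 fold change was -0.95, beside 0.01 over all genes tested, and it ranged from -2.65 for *Slfn4* to -0.25 for *Cmpk2*. By the quasi-likelihood test of edgeR, 41 of the 46 were lower at an unadjusted p under 0.05, a rule that called 12.2% of all genes lower, and 0 were higher, a rule that called 10.8% of all genes. After adjustment over all genes 0 of the 46 passed 0.05, beside 0.0246% of all genes. Their smallest adjusted p in edgeR was 0.110, for *Ifitm1* and *Isg20*, and the 41 genes reached up to 0.217. The 5 genes not under 0.05 unadjusted were *Ifih1*, *Ifi204*, *Oasl2*, *Ifi27l2a* and *Xaf1*.

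The call depended on the test. The DESeq2 Wald test, the one used in the study, called 11 of the 46 lower on the same genes (4.63% of all), and 9 when run on every gene with a count (1.90% of all). These 11 were *Oas2*, *Ifitm1*, *Ifitm2*, *Mx2*, *Rsad2*, *Isg20*, *Usp18*, *Trim25*, *Ifi27*, *Ifi30* and *Ifi35*. The limma-voom test with quality weights, which gives less weight to libraries that vary more, called 45 lower (7.01% of all), and *Ifit3b* was the exception. Without *Tet2*-KO mouse 5, edgeR called 40 lower (7.30% of all), and without both WT mouse 2 and *Tet2*-KO mouse 5 it called 29 (4.94% of all). Of the 46, 10 were called by DESeq2, by limma-voom and by edgeR without *Tet2*-KO mouse 5. The unadjusted count of 41 also changed when a mouse was left out. It was 22 without WT mouse 2, 26 without *Tet2*-KO mouse 2 and 46 without *Tet2*-KO mouse 5. For the overlap of 10 and for the unadjusted counts with a mouse left out, the share of all genes was not counted.

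**Figure D1:**
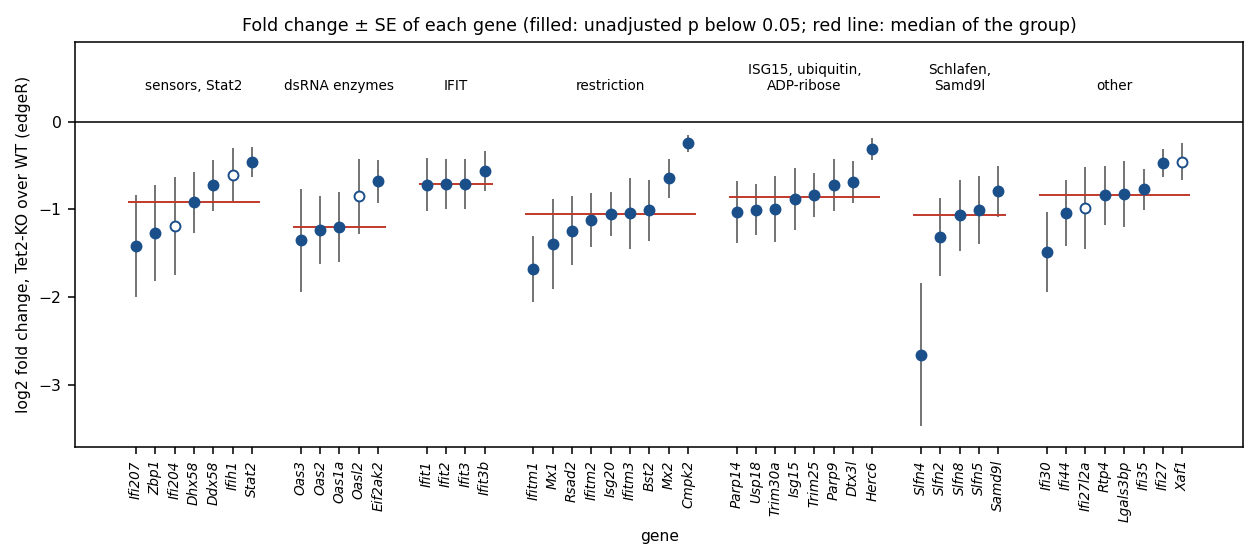
Log2 fold change (*Tet2*-KO over WT, edgeR) of each of the 46 genes on the vertical axis, grouped by role along the horizontal axis, with bars for the SE, filled points for an unadjusted p under 0.05 and a red line for the median of each group. Every point lies below 0, from -2.65 for *Slfn4* to -0.25 for *Cmpk2*, and the 5 open points are *Ifih1*, *Ifi204*, *Oasl2*, *Ifi27l2a* and *Xaf1*.

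The difference was carried by the *Tet2*-KO mice to unequal degrees. The summed level of the 46 genes was 1339, 1920, 1250, 1375, 1330 and 1306 CPM in WT mice 1 to 6. In *Tet2*-KO mice 1 to 6 it was 323, 580, 632, 1051, 1507 and 587 CPM. The WT mice lay close together apart from mouse 2, while the *Tet2*-KO mice were spread widely, and mouse 5 lay above 5 of the 6 WT mice.

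Taken gene by gene, *Tet2*-KO mouse 1 was at a median of 19.0% of the WT mean, mice 2, 3 and 6 at 37.1%, 41.3% and 38.4%, mouse 4 at 73.1% and mouse 5 at 106%. *Tet2*-KO mice 1, 2 and 3 lay below every WT mouse in 46 of 46 genes, mouse 6 in 45, mouse 4 in 40 and mouse 5 in 3. *Tet2*-KO mouse 1 had the lowest level of all 12 mice in 43 genes, and WT mouse 2 the highest in 39. *Tet2*-KO mouse 5 had the highest level of its own group in 45 genes and exceeded the WT mean in 29. For these positions of single mice the share of all genes was not counted, so the counts describe the list only.

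Every *Tet2*-KO mouse lay below every WT mouse in 2 of the 46 genes, *Ifitm1* and *Usp18*, beside 0.641% of all genes. With *Tet2*-KO mouse 5 left out this held for 39 genes, beside 4.78% of all genes. *Tet2*-KO mouse 5 was the highest of all 12 mice in *Oas3*, *Ifit2*, *Isg15* and *Ifi27l2a*. In *Ifi27* the order differed, since mouse 4 and not mouse 5 was the highest of the *Tet2*-KO group.

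**Figure D2:**
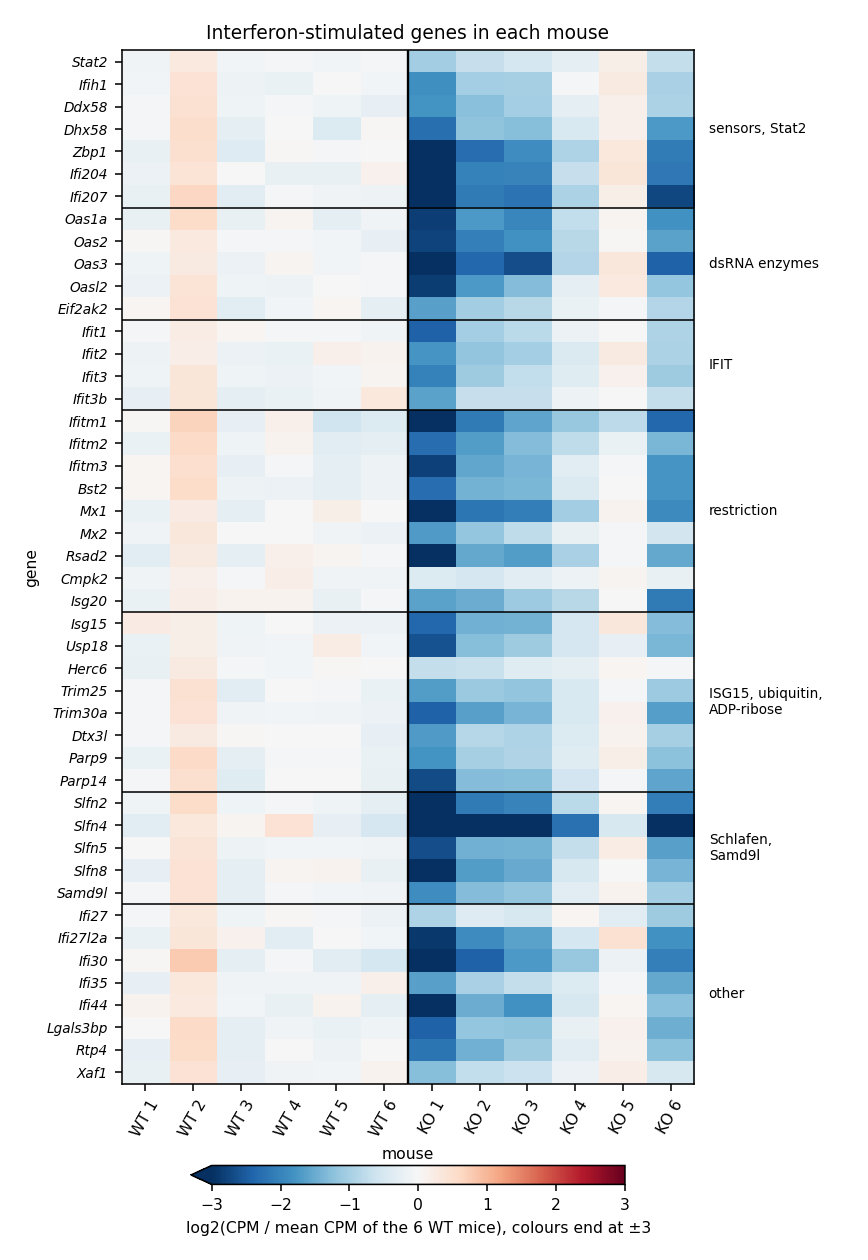
Level of each of the 46 genes (rows, grouped by role) in each of the 12 mice (columns), as the log2 ratio of its CPM to the mean of the 6 WT mice, with blue for lower, red for higher and colours ending at ±3. *Tet2*-KO mouse 1 is the darkest blue column, lowest of all mice in 43 genes, *Tet2*-KO mouse 5 resembles the WT columns, and WT mouse 2 is the highest in 39 genes.

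*Stat2*, the interferon signal transducer of the list, was at 9.45 CPM per kilobase of exon in the WT mice and 6.87 in the *Tet2*-KO mice. Per kilobase, *Ifi207* was above it in the WT mice (10.7) and below it in the *Tet2*-KO mice (4.05). *Stat2* ranged from 52.4 to 68.9 CPM in the WT mice (median 53.8) and from 27.4 to 63.2 CPM in the *Tet2*-KO mice (median 36.8). Of the 6 *Tet2*-KO mice, 5 lay below every WT mouse, and the log2 fold change was -0.46 ± 0.17 SE (edgeR adjusted p = 0.154).

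*Ddx58*, which encodes the RNA sensor RIG-I, ranged from 34.1 to 55.4 CPM in the WT mice (median 38.2) and from 11.6 to 45.0 CPM in the *Tet2*-KO mice (median 20.4). *Dhx58* encodes LGP2, a relative of RIG-I that modulates RNA sensing. It ranged from 9.07 to 17.5 CPM in the WT mice and from 2.54 to 13.5 CPM in the *Tet2*-KO mice. In both genes 5 of the 6 *Tet2*-KO mice were lower than any WT mouse, with log2 fold changes of -0.73 ± 0.29 and -0.92 ± 0.35 SE (edgeR adjusted p = 0.176 and 0.161).

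Of the 7 genes of this group 5 were lower at an unadjusted p under 0.05, and the median log2 fold change was -0.92. *Zbp1*, a sensor of nucleic acids in the Z form, was at -1.27, and *Ifi204* and *Ifi207*, of the p200 family of DNA-binding proteins, were at -1.19 and -1.42. *Ifih1*, which encodes the RNA sensor MDA5, was at -0.61, and 4 of the 6 *Tet2*-KO mice lay below every WT mouse. The p200 genes form a cluster of similar copies, so that their single counts are uncertain.

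The oligoadenylate synthetases make a messenger that activates RNase L, and Eif2ak2 (PKR) halts translation once it binds double-stranded RNA. *Oas2* ranged from 17.4 to 25.5 CPM in the WT mice (median 20.3) and from 3.04 to 21.3 CPM in the *Tet2*-KO mice (median 6.34). Only *Tet2*-KO mouse 5 reached the WT range, and the log2 fold change was -1.23 ± 0.39 SE (edgeR adjusted p = 0.131). *Oas1a* ranged from 8.90 to 16.0 CPM in the WT mice and from 1.55 to 11.5 CPM in the *Tet2*-KO mice, a log2 fold change of -1.20 ± 0.40 SE (edgeR adjusted p = 0.138). *Oas1a* has near copies, *Oas1g* among them, and shares of reads between them are uncertain.

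*Eif2ak2* ranged from 28.9 to 48.4 CPM in the WT mice and from 11.7 to 35.1 CPM in the *Tet2*-KO mice, where mice 4 and 5 overlapped the WT range. Its log2 fold change was -0.68 ± 0.25 SE (edgeR adjusted p = 0.151). *Oasl2*, an OAS-like gene with the highest level per kilobase of this group, ranged from 59.0 to 89.1 CPM in the WT mice and from 9.29 to 82.0 CPM in the *Tet2*-KO mice. Its log2 fold change of -0.85 ± 0.42 SE did not reach an unadjusted p of 0.05 (edgeR adjusted p = 0.254). The largest difference of the 5 enzymes was that of *Oas3*, at -1.35 ± 0.59 SE, and the median was -1.20.

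The 4 *Ifit* genes, whose products bind foreign RNA and block its translation, had log2 fold changes within a narrow range, from -0.72 for *Ifit1* to -0.56 for *Ifit3b*, and all 4 were lower at an unadjusted p under 0.05. *Ifit3*, the highest of them per kilobase, ranged from 34.2 to 49.6 CPM in the WT mice (median 35.8) and from 9.48 to 42.1 CPM in the *Tet2*-KO mice (median 20.9). *Ifit2* ranged from 33.6 to 44.4 CPM in the WT mice and from 11.2 to 46.2 CPM in the *Tet2*-KO mice. Both had a log2 fold change of -0.71 ± 0.29 SE (edgeR adjusted p = 0.177), and in both only *Tet2*-KO mouse 5 reached the WT range or exceeded it. In *Ifit3b*, *Tet2*-KO mice 4 and 5 overlapped the WT range, and reads shared with *Ifit3* leave the split between these genes uncertain.

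Among the restriction factors, *Ifitm1* had the largest log2 fold change. The IFITM proteins sit in membranes and hinder the fusion of viruses with them. *Ifitm1* ranged from 10.4 to 25.2 CPM in the WT mice (median 14.8) and from 1.49 to 9.10 CPM in the *Tet2*-KO mice (median 4.42). The groups did not overlap, and the log2 fold change was -1.68 ± 0.37 SE (edgeR adjusted p = 0.110, DESeq2 adjusted p = 0.00452).

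*Ifitm2* ranged from 23.5 to 43.5 CPM in the WT mice and from 6.01 to 25.3 CPM in the *Tet2*-KO mice, a log2 fold change of -1.12 ± 0.31 SE (edgeR adjusted p = 0.121). *Ifitm3*, the gene of the list with the most reads per kilobase (102 CPM per kilobase in the WT mice and 49.6 in the *Tet2*-KO mice), ranged from 57.5 to 98.5 CPM in the WT mice and from 9.91 to 67.5 CPM in the *Tet2*-KO mice. In both genes *Tet2*-KO mouse 5 alone lay within the WT range. *Isg20*, an exonuclease of single-stranded RNA, was low, from 2.56 to 3.44 CPM in the WT mice and from 0.692 to 2.98 CPM in the *Tet2*-KO mice. Its log2 fold change was -1.05 ± 0.25 SE (edgeR adjusted p = 0.110, DESeq2 adjusted p = 0.00452).

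All 9 restriction factors were lower at an unadjusted p under 0.05, with a median log2 fold change of -1.05. *Bst2*, which encodes tetherin and holds budding virions at the cell surface, was at -1.01, and *Rsad2*, which encodes viperin, at -1.24. *Mx1* and *Mx2*, which encode dynamin-like GTPases and carry inactive alleles in C57BL/6 mice, were at -1.39 and -0.64. *Cmpk2*, the neighbour of *Rsad2* in the genome, encodes a nucleotide kinase, and its log2 fold change of -0.25 ± 0.09 SE was the smallest of all 46. *Cmpk2* ranged from 28.0 to 34.7 CPM in the WT mice and from 21.4 to 32.1 CPM in the *Tet2*-KO mice, and 5 of the 6 *Tet2*-KO mice were still lower than any WT mouse.

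Isg15 is a ubiquitin-like protein that is joined to other proteins, and Usp18 removes it and also dampens signalling at the interferon receptor. *Usp18* ranged from 15.2 to 20.3 CPM in the WT mice (median 16.4) and from 2.85 to 14.7 CPM in the *Tet2*-KO mice (median 7.74). The groups did not overlap, and the log2 fold change was -1.002 ± 0.29 SE (edgeR adjusted p = 0.123, DESeq2 adjusted p = 0.0315). *Isg15*, with the highest level per kilobase of its group, ranged from 8.24 to 10.98 CPM in the WT mice and from 1.80 to 11.7 CPM in the *Tet2*-KO mice. *Tet2*-KO mouse 5 was the highest of all mice and the other 5 lay below every WT mouse, with a log2 fold change of -0.88 ± 0.35 SE (edgeR adjusted p = 0.174).

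*Trim25*, a ubiquitin ligase that acts on RIG-I, ranged from 33.0 to 57.7 CPM in the WT mice and from 13.01 to 39.9 CPM in the *Tet2*-KO mice, a log2 fold change of -0.84 ± 0.25 SE (edgeR adjusted p = 0.125, DESeq2 adjusted p = 0.0308). *Dtx3l*, a ubiquitin ligase that works in a complex with Parp9, ranged from 25.6 to 36.3 CPM in the WT mice and from 9.23 to 32.6 CPM in the *Tet2*-KO mice, a log2 fold change of -0.69 ± 0.24 SE (edgeR adjusted p = 0.145). *Dtx3l* and *Parp9* overlap on opposite strands and the strand used in counting is not given in the sources used here, so their reads may be mixed. All 8 genes of this group were lower at an unadjusted p under 0.05, with a median log2 fold change of -0.86, and *Herc6*, the ligase that attaches Isg15 in mice, was the smallest at -0.31.

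The Schlafen genes are induced by interferon in leukocytes, and *Slfn4* is known from myeloid cells. *Slfn4* ranged from 14.6 to 27.7 CPM in the WT mice (median 19.6) and from 0.062 to 14.7 CPM in the *Tet2*-KO mice (median 0.774). *Tet2*-KO mouse 5, at 14.7 CPM, lay just within the WT range, while the other 5 were at 4.37 CPM or less. The log2 fold change of -2.65 ± 0.82 SE (edgeR adjusted p = 0.128) was the largest of the list, and without *Tet2*-KO mouse 5 it was -4.00 (edgeR adjusted p = 0.0101).

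*Slfn2* ranged from 10.9 to 19.4 CPM in the WT mice and from 1.55 to 13.9 CPM in the *Tet2*-KO mice, a log2 fold change of -1.32 ± 0.44 SE (edgeR adjusted p = 0.138). *Samd9l*, which restricts viral translation, was at -0.79 ± 0.29 SE (edgeR adjusted p = 0.153). *Slfn8* was at -1.07 ± 0.40 SE (edgeR adjusted p = 0.163). *Slfn5*, the highest of the group per kilobase, ranged from 49.98 to 73.1 CPM in the WT mice and from 8.86 to 65.2 CPM in the *Tet2*-KO mice, a log2 fold change of -1.01 ± 0.39 SE (edgeR adjusted p = 0.165). All 5 genes were lower at an unadjusted p under 0.05, with a median log2 fold change of -1.07, and the near copies within the Schlafen cluster leave single counts uncertain.

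*Ifi30*, which encodes a thiol reductase of lysosomes that unfolds antigens, led the remaining 8 genes. It ranged from 20.6 to 51.6 CPM in the WT mice (median 26.4) and from 3.04 to 26.4 CPM in the *Tet2*-KO mice (median 8.16), a log2 fold change of -1.49 ± 0.46 SE (edgeR adjusted p = 0.128, DESeq2 adjusted p = 0.0331). *Ifi35*, an adaptor that binds the partner protein Nmi, ranged from 7.90 to 11.7 CPM in the WT mice and from 3.04 to 9.10 CPM in the *Tet2*-KO mice, a log2 fold change of -0.77 ± 0.23 SE (edgeR adjusted p = 0.123). In both genes *Tet2*-KO mouse 5 lay within the WT range and the other 5 below it.

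*Ifi27*, a small membrane protein of mitochondria, ranged from 21.7 to 30.5 CPM in the WT mice and from 11.6 to 25.3 CPM in the *Tet2*-KO mice, a log2 fold change of -0.47 ± 0.16 SE (edgeR adjusted p = 0.138). *Lgals3bp*, a secreted glycoprotein that binds galectins, had the most reads of the list, from 143 to 260 CPM in the WT mice and from 32.8 to 192 CPM in the *Tet2*-KO mice. Its log2 fold change was -0.83 ± 0.37 SE (edgeR adjusted p = 0.217), and *Tet2*-KO mice 4 and 5 overlapped the WT range. Of the 8 genes 6 were lower at an unadjusted p under 0.05, with a median log2 fold change of -0.83.

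**Figure D3:**
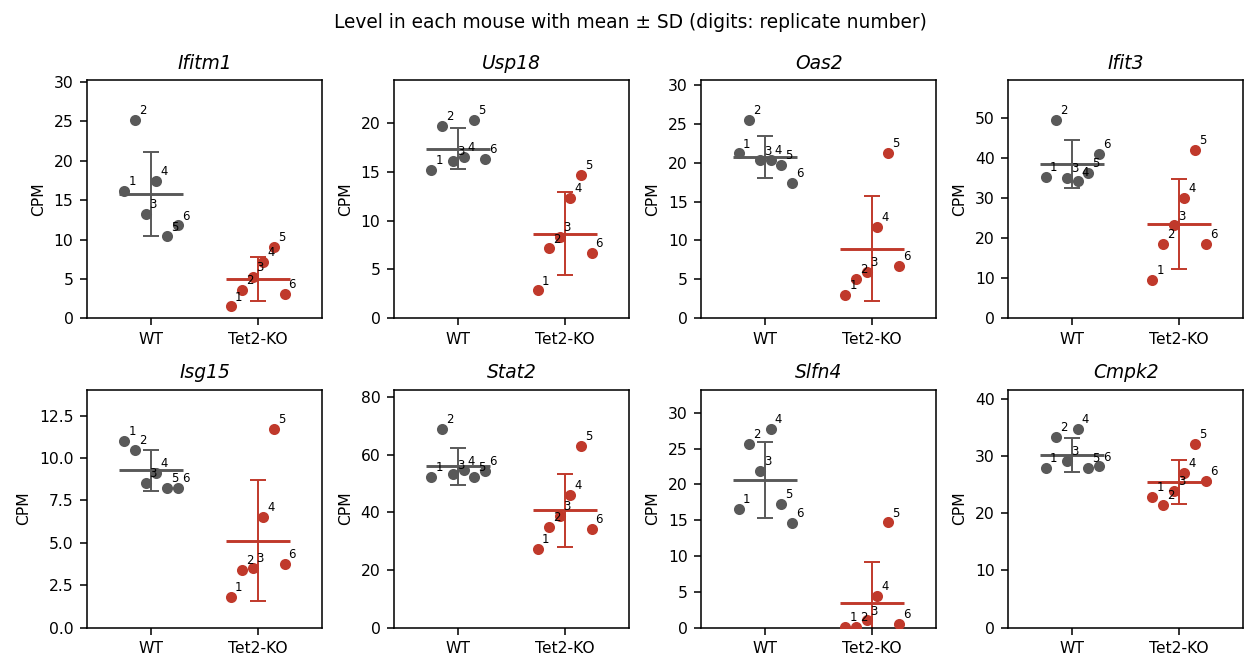
Level in CPM (vertical axes, each from 0) of 8 genes in each WT mouse (grey) and *Tet2*-KO mouse (red), with the mean as a line, bars for the SD (6 mice per group) and the replicate number beside each point. The groups do not overlap in *Ifitm1* and *Usp18*, *Tet2*-KO mouse 5 is in or above the WT range in the other 6 genes, and *Cmpk2* differs least.

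The rest of the pathway was read from lists of its parts. Genes of these lists are counted at an unadjusted p under 0.05 in edgeR, a rule that called 12.2% of all genes lower and 10.8% higher. The interferons themselves were close to absent at this depth. Of 20 ligand genes 0 passed the filter on low counts and 7 had no read in any mouse. *Ifnb1* had 2 reads over the 6 WT mice and 1 over the 6 *Tet2*-KO mice, and *Ifng* had 7 and 4, so that a difference was not detectable. *Ifnk*, made mainly in skin, had the most with 41 and 39 reads.

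Of 8 tested receptor and kinase genes 7 were lower at an unadjusted p under 0.05 and 0 were higher, with a median log2 fold change of -0.28. *Ifnar1*, a chain of the type I receptor, ranged from 62.5 to 79.0 CPM in the WT mice and from 50.8 to 64.3 CPM in the *Tet2*-KO mice, a log2 fold change of -0.28 ± 0.07 SE (edgeR adjusted p = 0.110). *Jak1* was the exception at -0.05.

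All 7 transcription factor genes reported were lower at an unadjusted p under 0.05, with a median log2 fold change of -0.78. *Irf9*, which binds Stat2, was at -0.44 ± 0.16 SE (edgeR adjusted p = 0.1501). *Irf7*, the factor that amplifies interferon production, ranged from 40.6 to 55.5 CPM in the WT mice and from 5.95 to 60.1 CPM in the *Tet2*-KO mice, where mouse 5 was again above the WT range and the other 5 below it. *Irf1* had the smallest p of these factors, with a log2 fold change of -0.78 ± 0.19 SE (edgeR adjusted p = 0.110).

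Of 13 sensor and adaptor genes upstream of interferon 7 were lower at an unadjusted p under 0.05, with a median log2 fold change of -0.59. *Myd88*, the adaptor of Toll-like receptors, was at -0.81 ± 0.19 SE (edgeR adjusted p = 0.110), while the kinase gene *Tbk1* and the adaptor gene *Traf3* were at -0.00099 and -0.06. Of 6 tested negative regulators 4 were lower, with *Socs3*, an inhibitor of Jak kinases, at -1.38 ± 0.36 SE (edgeR adjusted p = 0.117) and the RNA editing enzyme gene *Adar* at 0.03. Of 37 further interferon-stimulated genes 32 were lower, with a median log2 fold change of -0.87. *Helz2*, a helicase gene, had the smallest p among them, at -0.97 ± 0.24 SE (edgeR adjusted p = 0.112). With all 12 mice, 0 genes of these lists were higher at an unadjusted p under 0.05, and 0 passed 0.05 after adjustment in edgeR.

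The adjusted calls of these lists depended on the test and on *Tet2*-KO mouse 5 too. On the same genes, DESeq2 called 5 receptor and kinase genes, 4 transcription factors, 4 sensors and adaptors, 2 negative regulators and 5 further genes lower, by a rule that called 4.63% of all genes. Run on every gene with a count (1.90% of all called), it called 5, 1, 3, 2 and 8 in the same order. The limma-voom test called 6, 5, 8, 3 and 33 (7.01% of all), and edgeR without *Tet2*-KO mouse 5 called 6, 4, 6, 3 and 33 (7.30% of all). Without WT mouse 2 and *Tet2*-KO mouse 5, edgeR called 6, 2, 6, 1 and 27 (4.94% of all).

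Markers of infiltrating and activated myeloid cells were lower in the *Tet2*-KO group as well. In bulk tissue, fewer cells of a type and less RNA per cell cannot be told apart. The paper counted macrophages and T cells in stained brain sections at the same time after stroke, and reported similar numbers in both groups. It does not state whether those brains were the ones sequenced, and the link between cell counts and marker levels was not tested here. Of 7 markers of activated phagocytes 6 were lower at an unadjusted p under 0.05, beside 12.2% of all genes. Their median log2 fold change was -1.67. Their summed level ranged from 752 to 1913 CPM in the WT mice, and was 44.3, 183, 132, 421, 1156 and 134 CPM in *Tet2*-KO mice 1 to 6. Mice 1 and 5 were thus the lowest and the highest of their group in this list too, and WT mouse 2 was the highest of all.

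Of 6 monocyte markers 5 were tested and all 5 were lower, with a median log2 fold change of -1.78 and summed levels of 34.2 to 65.5 CPM in the WT mice and 1.80 to 41.8 CPM in the *Tet2*-KO mice. Of 8 neutrophil markers 4 were tested and all 4 were lower, 2 of them past 0.05 after adjustment in edgeR (*S100a8* and *S100a9*, both 0.0364). The summed level of the 8 markers was only 7.06 to 20.7 CPM in the WT mice and 1.77 to 6.12 CPM in the *Tet2*-KO mice. Of the markers not tested, *Ly6g*, which defines neutrophils, had 2 reads in all WT mice and 0 in all *Tet2*-KO mice. *Retnlg*, *Ngp* and *Camp*, not tested either, had 46, 61 and 17 reads in all WT mice and 47, 58 and 15 in all *Tet2*-KO mice. Of 6 T cell markers 4 were tested and all 4 were lower, with a median of -0.92, and of 5 B cell markers 2 were tested and both were lower. Of 4 NK cell markers 0 were tested, and the plasmacytoid dendritic cell list had 1 tested marker of 3, at -0.39. A marker could pass the filter on low counts through 1 group alone, so the tested markers of a list may not represent it. At an unadjusted p under 0.05 in edgeR, 12.2% of all genes were lower.

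Of 8 microglia markers 1 was lower at an unadjusted p under 0.05, a count near the 12.2% of all genes called lower. Their median log2 fold change was -0.21. Their summed level ranged from 644 to 1162 CPM in the WT mice and from 319 to 841 CPM in the *Tet2*-KO mice, with mouse 1 again the lowest. *P2ry12* and *Siglech*, markers of resting microglia, were at 0.05 and -0.0034.

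At an unadjusted p under 0.05 in edgeR, 12.2% of all genes were lower and 10.8% higher. Of 6 endothelial markers 3 were lower, with a median of -0.27, and of 4 choroid plexus markers 1 was lower, with a median of -0.26. Astrocyte markers had a median of -0.12, with 1 of 6 higher (*Slc1a2*). *Gfap* and *Aqp4*, at -0.34 and -0.40, were lowest in *Tet2*-KO mouse 1 (359 and 141 CPM) and highest in WT mouse 2 (1930 and 528 CPM), as most of the 46 genes were. Oligodendrocyte markers had a median of -0.01 with 0 of 5 called. All 6 neuron markers were higher at an unadjusted p under 0.05, with a median of 0.26 and summed levels of 3422 to 4928 CPM in the WT mice and 4512 to 5995 CPM in the *Tet2*-KO mice. Of 5 red blood cell markers 3 were higher, with a median of 0.54. The part of these cell types in the levels of the interferon-stimulated genes was not tested.

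**Figure D4:**
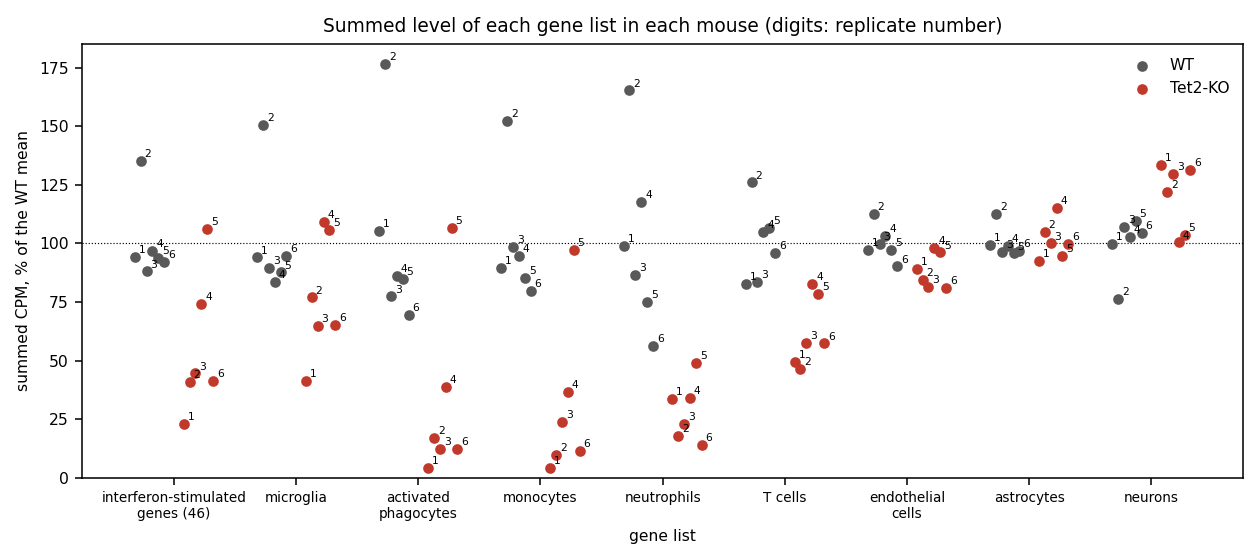
Summed CPM of the 46 genes and of 8 lists of cell type markers (horizontal axis) in each mouse, as a percentage of the mean of the 6 WT mice (vertical axis), with WT in grey, *Tet2*-KO in red and the replicate number beside each point. In the first list as in those of activated phagocytes and monocytes, *Tet2*-KO mouse 1 is the lowest, *Tet2*-KO mouse 5 lies close to the WT mean and WT mouse 2 is the highest. The astrocyte sum, from 5644 to 7036 CPM, is mostly *Slc1a2*. In *Tet2*-KO mouse 5, *Spp1* alone gives 710 of the 1156 CPM of the activated phagocyte sum, above its WT mean of 519 CPM.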

How the data were processed

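The samples were brains of 12 mice, grouped by the titles and genotype entries of the labels. The authors trimmed paired reads with Trimmomatic 0.36, aligned them to mm10 with STAR 2.5.2b and counted exonic reads that mapped uniquely by featureCounts of Subread 1.5.2, and they deposited raw counts per gene. The annotation release and strand setting are not given in the sources used here, and 0 columns belonged to other samples. Symbols, positions and exon lengths came from GENCODE M21, and promoter windows from RefSeq.

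Genes passing filterByExpr were scaled by TMM in R 4.3.3 and compared by the quasi-likelihood test of edgeR 4.0.16 (robust, no covariate), with Benjamini-Hochberg adjustment over 20290 genes and a threshold of 0.05. The SE of a log2 fold change is its size over the root of the F statistic. Alternatives were DESeq2 1.42.0, limma-voom (limma 3.58.1), other scalings and filters, a replicate block and each mouse left out. The tests were run on simulated counts as well, with genes drawn independently and no mouse set apart from its group. That check does not bear on the differences between the tests seen here. The p-values set the difference between the groups against the spread between mice.

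The 46 genes, their role groups and the other lists were chosen with earlier results of these data known. Named in full were, per role, the 3 genes of smallest p and the gene of highest level per kilobase, and in the pathway lists *Irf9*, *Irf7*, *Ifng* and the gene of smallest p in each list. The values of 1 further gene are not reported here. Other single values, such as those of *Slfn4* without a mouse, *Cmpk2*, *Ifnk*, *Tbk1* and marker genes, were chosen after their values were seen.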

Additional observations from a re-analysis of the deposited data

Results flagged for a closer look

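In 8 of the 68 sets of 6 mice examined (each named gene and the summed level, in each group, on the log2 scale), 1 mouse stood farther from its nearest neighbour than Dixon's 95% critical share of the group's range. For a single set, chance alone gives about 1 in 20. The sets share the same mice, and the summed level contains member genes, so they are not independent. The 8 flags are therefore not set against that rate. In all 8 flagged sets the mouse was WT mouse 2, as the highest of its group, which amounts to 1 observation of that mouse. The gap was 0.852 of the range for *Stat2*, 0.699 for *Ddx58*, 0.705 for *Oasl2*, 0.704 for *Slfn2*, 0.664 for *Samd9l*, 0.738 for *Slfn5*, 0.671 for *Lgals3bp* and 0.778 for the summed level of the 46 genes. In the *Tet2*-KO group 0 sets passed this limit.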

How the results depend on the processing

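The count of genes past the adjusted threshold was 0 in edgeR and stayed 0 under other scalings, other filters and the replicate block. It was 11 by DESeq2, 9 by DESeq2 on all genes with a count, 45 by limma-voom, and 0 to 40 with each mouse left out, where 40 came without *Tet2*-KO mouse 5. Without WT mouse 2 and *Tet2*-KO mouse 5 together it was 29. The count lower at an unadjusted p under 0.05 was 22 to 46 with each mouse left out, where the share of all genes was not counted. The median log2 fold change was -1.17 by limma-voom, -1.16 without both mice and -1.26 to -0.77 with each mouse left out. The count of genes with every *Tet2*-KO mouse below every WT mouse was 2 to 39 with each mouse left out, and 39 without both mice. The cause of these shifts was not tested.

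The replicate numbers showed no clear pairing of the mice, with correlations of deviations from -0.17 to 0.23 and 1 of 6 WT mice closest to its own number. These 6 correlations could miss a weak pairing. With the block, 45 genes were lower at an unadjusted p under 0.05 and the median was -1.11. The share of all genes was not counted with the block. No direction reversed, among the counts, the median and the 33 tested genes named by rule, under any alternative. DESeq2 on all genes with a count and the fit without both mice were chosen after seeing the data. Of the 20 interferon genes, 0 passed the filter on low counts, so none was tested.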
